A study of Mus musculus with 12 samples.

Results

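BATF peaks were compared between wild-type and NLRP3-knockout mouse CD4 T cells placed under Th2 conditions. The 2 lists compared are those of the BATF antibody, with 1 chromatin immunoprecipitation (ChIP-seq) library for each genotype. They hold 61698 of the 99986 peaks deposited in 12 lists. Their members were selected by position: peaks on chromosomes 1 to 19, X and Y that share no base with any peak of the matching Ig and input libraries. These are called control-free, and they numbered 608 of 772 peaks in wild-type and 60161 of 60926 in knockout cells. A peak is shared when it overlaps a control-free BATF peak of the other genotype by at least 1 bp, and otherwise belongs to its genotype alone.

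Both groups were C57/Bl6j mice aged 7 weeks, either Wild-type or NLRP3 KO (NLRP3-/-). Naive T cells from spleen and nodes were activated on plates coated with CD3 and CD28 antibodies. IL-4 was added at 10 ng/ml together with an antibody that blocks interferon gamma, for a time the labels give as a few hours. Chromatin came from 300000 cells. The same series holds lists for STAT6, IRF4 and NLRP3 antibodies, a nonspecific Ig and an input in each genotype. Lists of the NLRP3 antibody held 611 (wild-type) and 661 (knockout) peaks, so that loss of the protein cannot be read from them. Peak lists hold no expression values, and the cell type label was not checked here. The number of animals behind each library is not given in the sources used here.

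BATF is a basic leucine zipper protein of the AP-1 family. It has no activation domain of its own and binds DNA as a dimer with JUN proteins, at AP-1 motifs or, together with IRF4 or IRF8, at composite elements that join an AP-1 and an IRF motif. Mice without BATF make few Th17 and T follicular helper cells, and the factor is also needed for normal Th2 cytokine expression. NLRP3 is best known as the sensor of an inflammasome.

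Each peak carries the score of the authors' caller, which ranks peaks within a list and is not comparable between lists. How many reads support a peak is unknown. With 1 library a side no difference could be set against replicate error, no test was made, and the 95% intervals (exact, by Clopper and Pearson) describe the counting of peaks alone. In the knockout list 52967 control-free peaks, or 88.0%, stood at 1 score, 56.67, the commonest of the list. A further 6078 lay above it and 1116 below it. The wild-type list had no such block: its control-free scores ran from 50.06 to 670.77 with a median of 67.9, and the highest control-free knockout score was 114.52. Removal of control peaks took out 81 of 689 wild-type peaks (11.8%, 9.45 to 14.4) and 131 of 60292 knockout peaks (0.217%, 0.182 to 0.258). All 81 wild-type peaks overlapped Ig, and 18 of them input as well. In the knockout 68 overlapped Ig, 76 overlapped input and 13 both. The highest score among the peaks removed was 3183.42 in wild-type and 3100 in the knockout. The maxima of 670.77 and 114.52 thus hold for control-free peaks only.

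The overlap of the lists was small, and the share found was highest among the strongest wild-type peaks. Of the 608 wild-type peaks 52 were shared, which is 8.55% (6.45 to 11.1), and 556 were found in wild-type alone. The 52 met 52 different knockout peaks, 30 at the commonest score and 22 above it, so that 3.62% (2.28 to 5.43) of wild-type peaks met a knockout peak above the commonest score. For the other antibodies all control-free knockout peaks were searched, with no score set apart, so the like BATF value is 8.55%, not 3.62%. Of 612 wild-type IRF4 peaks 3.43% met the knockout list of their own antibody. The shares were 1.79% of 392 NLRP3 antibody peaks and 0.488% of 2871 STAT6 peaks. The knockout lists searched held control-free peaks only, and they differ in length. Outside X and Y these peaks numbered 56546 for BATF, 726 for IRF4, 463 for the NLRP3 antibody and 156 for STAT6. As deposited, the same lists held 60926, 1008, 661 and 361 peaks. The shares are therefore not on an equal footing. The shared BATF peaks were spread over 18 of the 21 chromosomes, with at most 4 on any of them.

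Shared peaks overlap by definition, which limits how far apart their centres can lie. The centres of the 52 pairs were a median of 14.5 bp apart (quartiles 7.63 and 31.8 bp), 34 pairs were within 20 bp, and in 34 the knockout peak lay wholly inside the wild-type one. The knockout list covered 0.138% of the 2576 Mb spanned by the peaks of all lists, at 23.4 peaks per Mb. Within 100 bp of the centres of the 608 wild-type peaks there were 52 knockout centres, or 428 per Mb. Between 100 and 250 bp there were 6, or 32.9 per Mb, and from 10 to 50 kb 23.95 per Mb. Around the 50 highest-scored wild-type peaks the density within 100 bp was 1800 per Mb, from 18 centres, and from 10 to 50 kb it was 24.75 per Mb. Around the 258 lowest-scored ones it was 116 per Mb, from 6 centres. For knockout peaks above the commonest score the density within 100 bp of all wild-type centres was 181 per Mb, against 2.71 per Mb from 10 to 50 kb.

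**Figure D1:**
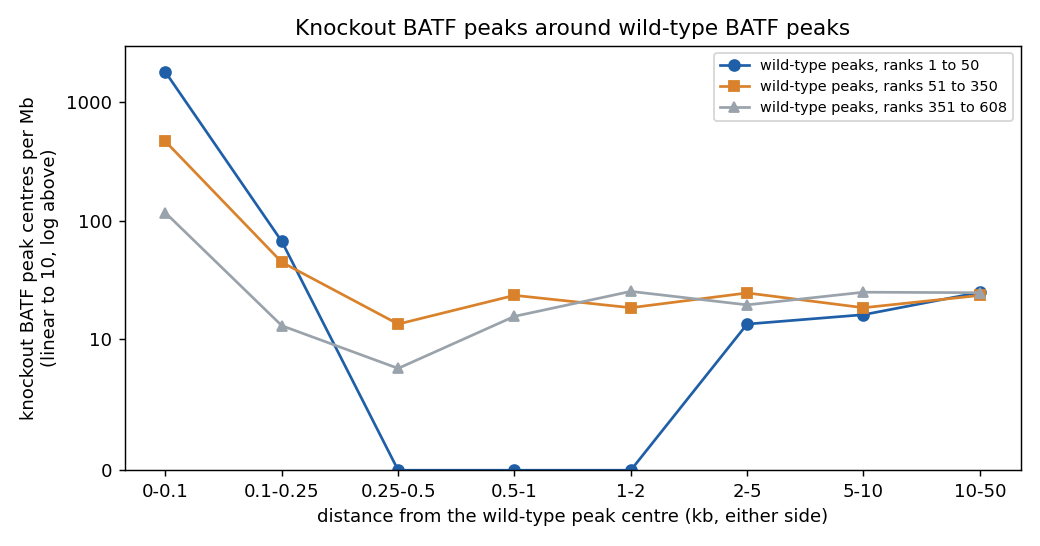
Knockout BATF peak centres per Mb (vertical axis, linear to 10 and logarithmic above) against distance from the centre of wild-type BATF peaks in kb, for 3 ranges of wild-type score rank, 1 library a side. Within 100 bp the density is 1800 per Mb for ranks 1 to 50 and 116 per Mb for the lowest-scored 258 peaks, and beyond 10 kb the lines lie between 23.3 and 24.75 per Mb.

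Recovery fell with the rank of the wild-type peak. Of the 50 highest-scored wild-type peaks 19 were found in the knockout list, or 38% (24.7 to 52.8), and of the 558 others 33, or 5.91% (4.11 to 8.21). These intervals did not overlap. Among the first 10 peaks 7 were found, and among the first 20 there were 13, which is 65% (40.8 to 84.6). The next 2 groups of 50 had 6 each, or 12% (4.53 to 24.3). Ranks 551 to 600 had 0 of 50, which allows a share of up to 6% by a floor of 3 peaks (exact upper limit 7.11%). In 4 equal parts of the list, by rank, the shares were 20.4% (14.3 to 27.7), 7.89% (4.15 to 13.4), 3.95% (1.46 to 8.39) and 1.97% (0.409 to 5.66). The fall from the top 50 to the rest held for knockout peaks above the commonest score, with 9 of 50 or 18% (8.58 to 31.4) against 13 of 558 or 2.33% (1.25 to 3.95). Ties set the order inside parts of the list: 324 of the 608 wild-type peaks had 1 of 11 scores that at least 10 peaks held. Of these 4.63% (2.61 to 7.52) were found in the knockout list, against 13.0% (9.34 to 17.5) of the 284 other peaks, which include the highest-scored ones.

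**Figure D2:**
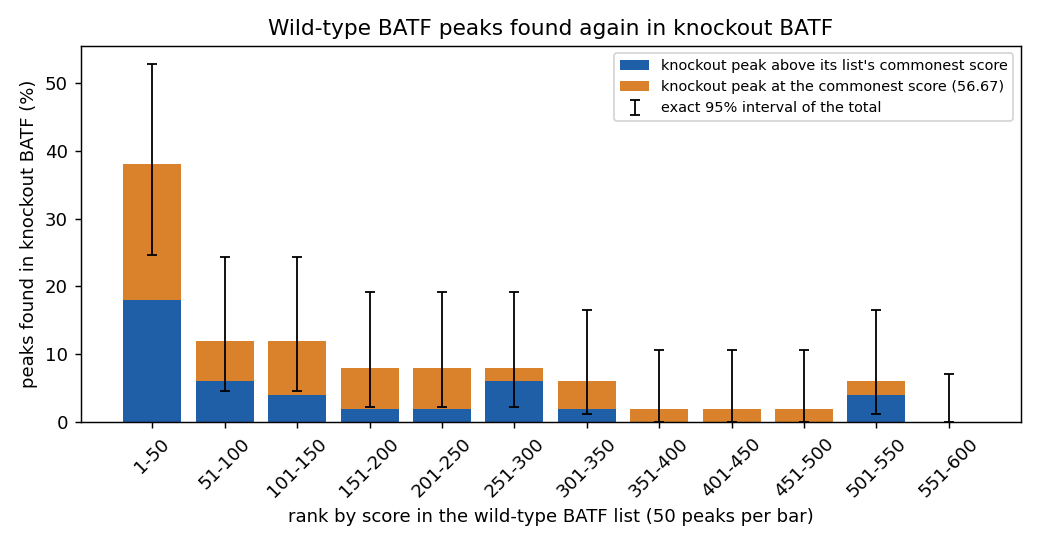
Share of wild-type BATF peaks found in knockout BATF (vertical axis, %), in groups of 50 by wild-type score rank, split by the score of the knockout peak, with exact 95% intervals for the total. The first group stands at 38%, the next 2 at 12%, and ranks 551 to 600 at 0 of 50.

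The sites at the top of the wild-type list show how the 2 libraries meet. Positions are as deposited, counted from 1, most probably in the build mm9, and genes near them were not analysed here. The highest wild-type peak, at chromosome 5 positions 114623079 to 114623200, scored 670.77 and held a knockout BATF peak of 90.43 whose centre lay 2 bp away. The same site had peaks of wild-type IRF4 (126), knockout IRF4 (131) and the wild-type NLRP3 antibody (118). At chromosome 5, between 131995572 and 131995687, the wild-type score was 500.33 and the knockout score 114.52, which is the highest control-free knockout score. Only the BATF lists of the 2 genotypes had a peak at this site. The lack of a peak in another list does not show that its antibody gave no signal there. At chromosome 9, between 88448046 and 88448166, BATF reached 481 (wild-type) and 90.43 (knockout), with wild-type peaks of IRF4 (138) and the NLRP3 antibody (82.9).

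Below these, knockout peaks at the commonest score became frequent among the partners. The wild-type peak at chromosome 7 positions 105208521 to 105208605 (score 376) and that at chromosome 4 positions 93407049 to 93407178 (329) both met knockout peaks of 56.67, at centre distances of 6.5 and 5 bp. The peak at chromosome 14 positions 104736125 to 104736274 (291) also met a knockout peak of 56.67, and IRF4 peaks there had scores of 94.6 (wild-type) and 108 (knockout). On chromosome 13, from 58869753 to 58869865, BATF had 284 (wild-type) and 56.67 (knockout), and IRF4 had 194 and 149. So the commonest knockout score was found at sites that ranked among the first 15 in wild-type cells. On chromosome 12, from 70462369 to 70462469, the BATF scores were 288 (wild-type) and 78.55 (knockout), with no peak of another antibody. The site on chromosome 9 from 19379870 to 19379957 had BATF scores of 282 (wild-type) and 90.43 (knockout), and wild-type IRF4 scored 82.7 and STAT6 76.8 there. In all, 12 of the 15 highest wild-type peaks were shared.

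A further peak of the top 15 counts as wild-type alone because of the control filter. The wild-type peak at chromosome 6 positions 132413697 to 132413826, second in the list with 632.65, overlapped a knockout BATF peak of 126.62. That knockout peak was removed since it met a knockout input peak at 57.35, the commonest score of the input list. The site also had peaks of IRF4 (228 in wild-type, 163 in the knockout), STAT6 (73.5 and 144) and the wild-type NLRP3 antibody (91.2). Without the control filter on the knockout list, 21 of the 50 highest wild-type peaks were found there in place of 19, and 54 of 608 in place of 52. With no control peaks removed from either list, the 50 highest were ranked anew and included peaks that overlap Ig or input. The counts were then 35 of 50, or 70%, and 110 of 689, or 15.97%.

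Among the 10 highest peaks of the wild-type class that was not shared, the other 9 met no deposited knockout BATF peak at all. The first of these, on chromosome 6 from 131327529 to 131327645, reached 373 and coincided with a wild-type IRF4 peak of 129. On chromosome 2, from 16604673 to 16604779, a peak of 334 coincided with a knockout IRF4 peak of 59.4. On chromosome 6, from 10136376 to 10136460, a peak of 201 coincided with a knockout IRF4 peak of 160. The remaining 6, with scores from 198 to 262, were in no list other than wild-type BATF. They include chromosome 7 positions 150554282 to 150554372 (262), chromosome 1 positions 12634843 to 12634926 (250.01) and chromosome 14 positions 71053496 to 71053588 (208). Of the 50 highest wild-type peaks 31 were not shared, and their median score was 153 against 284 for the 19 shared ones.

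In the reverse direction nearly all knockout peaks were found in the knockout alone, an outcome that the list lengths fix in advance. When each wild-type peak meets at most 1 knockout peak, as here, no more than 608 knockout peaks can be shared. Of the 60161 knockout peaks 52, or 0.0864%, overlapped a wild-type BATF peak. The share was 0.0566% (0.0382 to 0.0808) at the commonest score and 0.362% (0.227 to 0.548) above it, with intervals that did not overlap. Below the commonest score it was 0 of 1116, which allows up to 0.269% by a floor of 3 peaks (exact upper limit 0.330%). The knockout-only peaks thus numbered 52937 at the commonest score, 6056 above it and 1116 below it.

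The few highest knockout peaks behaved otherwise. Of the 7 control-free knockout peaks that scored at least 90, a limit set after the scores were seen, 6 overlapped a wild-type BATF peak, or 85.7% (42.1 to 99.6). Besides the 4 sites above that scored 90.43 or 114.52, these were chromosome 7 positions 52879025 to 52879094 and chromosome 10 positions 83417195 to 83417261, both with a knockout score of 97.83. Their wild-type partners scored 79.67 (rank 175) and 127.02 (rank 49). The exception, at chromosome 2 positions 33789489 to 33789558 with 97.83, was in no other list. Of the 6071 knockout peaks above the commonest score and under 90, 16 were found in wild-type cells, or 0.264% (0.151 to 0.428).

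A high knockout score alone did not mark a shared site. The scores stood on a few levels: 4942 control-free peaks at 67.01, 994 at 51.43, 619 at 60.05 and 394 at 87.27. Of the 394 peaks at 87.27, the level next below the 7 highest peaks, 1 was found in wild-type BATF, or 0.254% (0.00643 to 1.41). At 67.01 the share was 0.182% (0.0833 to 0.345), from 9 peaks. Among the 48 peaks above the commonest score that stood on no level of at least 50 peaks, 9 were found in wild-type cells, or 18.8% (8.95 to 32.6). This group includes the 7 highest. Over the 52 shared pairs the wild-type and knockout scores had a Spearman rho of 0.22 and a Pearson r of 0.48, a description over sites of the same 2 libraries in which 30 knockout scores are tied.

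Widths also differed between the lists. All 52967 knockout peaks at the commonest score were exactly 58 bp wide. So were all 994 at 51.43, while those at 67.01 measured 60 to 78 bp (median 68) and those at 87.27 measured 58 or 59 bp. Knockout peaks above the commonest score had a median of 68 bp (quartiles 63 and 72), and 40 of 6078 were over 78 bp. The 608 wild-type peaks had a median of 93 bp (quartiles 74 and 124), ran from 56 to 335 bp in 121 distinct widths, and 410 of them, or 67.4%, were over 78 bp. The knockout input list had the same form as the knockout BATF list, with 25683 of its 29714 peaks on these chromosomes at 57.35 and each of them 56 bp wide.

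In wild-type cells the shared peaks had a median width of 109.5 bp (quartiles 86.5 and 131) and those found in wild-type alone 92 bp (73.75 and 122). Within the top 50 the medians were 121 and 90 bp. In the knockout 30 of the 52 shared peaks were at the commonest score and so 58 bp wide, as most of that list is. The 22 shared peaks above the commonest score had a median of 73 bp, against 68 bp for the 6056 not shared, and 6 of the 22 but 34 of the 6056 were over 78 bp. A wider peak can meet another more easily, so width is not independent of the classes. In each of the 52 pairs the wild-type peak was the wider. Width did not follow score in a simple way among wild-type peaks: the median was 135 bp for the 171 peaks that scored under 60, 77 bp for the 68 from 80 to under 100, and 103 bp for the 32 of at least 150. Their shares found in the knockout were 2.92% (0.956 to 6.69), 8.82% (3.31 to 18.2) and 46.9% (29.1 to 65.3).

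Of the 5 widest peaks of each list, 3 were shared in wild-type and 1 in the knockout. The widest knockout peak of all stood below the commonest score and was not shared. The widest wild-type peak was shared, and so was the widest knockout peak above the commonest score. Both lie at chromosome 13, at positions 74667254 to 74667588 in wild-type (335 bp, score 72.76) and 74667394 to 74667587 in the knockout (194 bp, 69.28). IRF4 peaks there had 190 (wild-type) and 153 (knockout), knockout STAT6 186, and the NLRP3 antibody 74.4 and 68.7. The next widest wild-type peak, 283 bp at chromosome 6 positions 125826927 to 125827209, met a knockout peak of 56.67 and no other antibody. Its partner sat at the edge, 109.5 bp from the wild-type centre, the largest distance of the 52 pairs.

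**Figure D3:**
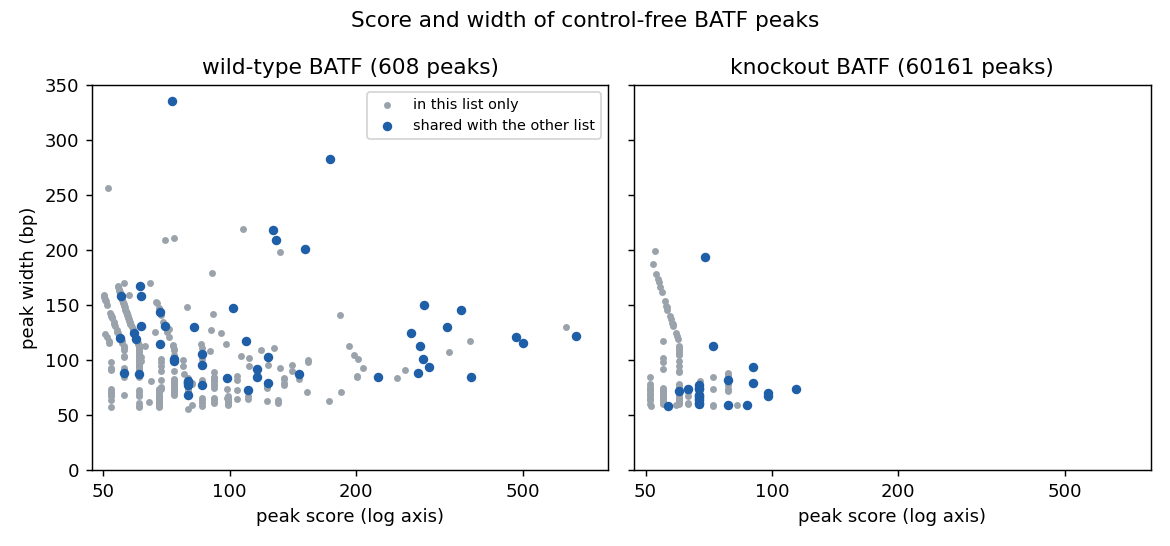
Width in bp (vertical axis) against peak score (logarithmic axis) of control-free BATF peaks in wild-type (left) and knockout (right) cells, with shared peaks in blue; each point is a score and width that at least 1 peak has. Knockout peaks end at a score of 114.52 and stand mostly in vertical lines at few scores, where the 52967 peaks at 56.67 fall on a single point at 58 bp, while wild-type peaks reach 670.77.

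Knockout peaks were spread almost evenly over the genome. On chromosomes 1 to 19 the density at the commonest score ran from 19.7 peaks per Mb on chromosome 5 to 21.7 on chromosome 10, a ratio of 1.10. For peaks above it the range was 2.06 on chromosome 17 to 2.56 on chromosome 3, a ratio of 1.24. Wild-type peaks ran from 0.140 per Mb on chromosome 15, from 14 peaks, to 0.308 on chromosome 18, from 27 peaks, a ratio of 2.20, with the wider counting error that such numbers bring. The nearest start of another knockout peak was a median of 16363 bp away, and 26 of 60161 peaks had one within 1000 bp, the closest at 162 bp. No peak at 56.67 had one closer than 2501 bp. Of the peaks at 51.43, which share the width of 58 bp, 78.1% had a neighbour within 5000 bp, against 10.6% of those at 56.67. In the wild-type list the median distance was 1.14e+06 bp, and 8 of 608 peaks had a neighbour within 1000 bp.

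The X chromosome set the knockout BATF list apart from the knockout input list. Control-free knockout BATF peaks had 22.0 per Mb on X and 23.4 on chromosomes 1 to 19, a ratio of 0.939 (0.908 to 0.972). The ratio was 0.932 (0.898 to 0.966) at the commonest score and 1.02 (0.915 to 1.13) above it. All peaks of the knockout input had 6.17 per Mb on X and 11.9 on chromosomes 1 to 19, a ratio of 0.519 (0.487 to 0.553). Both libraries carry the knockout label. The ratio was 1.15 (0.826 to 1.56) for control-free wild-type BATF and 0.985 (0.647 to 1.44) for all wild-type input peaks. Among the other knockout lists, with all peaks counted, it was 0.960 (0.713 to 1.27) for IRF4 and 1.04 (0.598 to 1.71) for STAT6. It was 0.603 (0.317 to 1.05) for Ig and 0.581 (0.357 to 0.897) for the NLRP3 antibody. For control-free knockout peaks it was 0.995 (0.729 to 1.33) for IRF4, 1.23 (0.640 to 2.16) for STAT6 and 0.573 (0.337 to 0.916) for the NLRP3 antibody. The part of this difference in the BATF comparison was not tested.

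**Figure D4:**
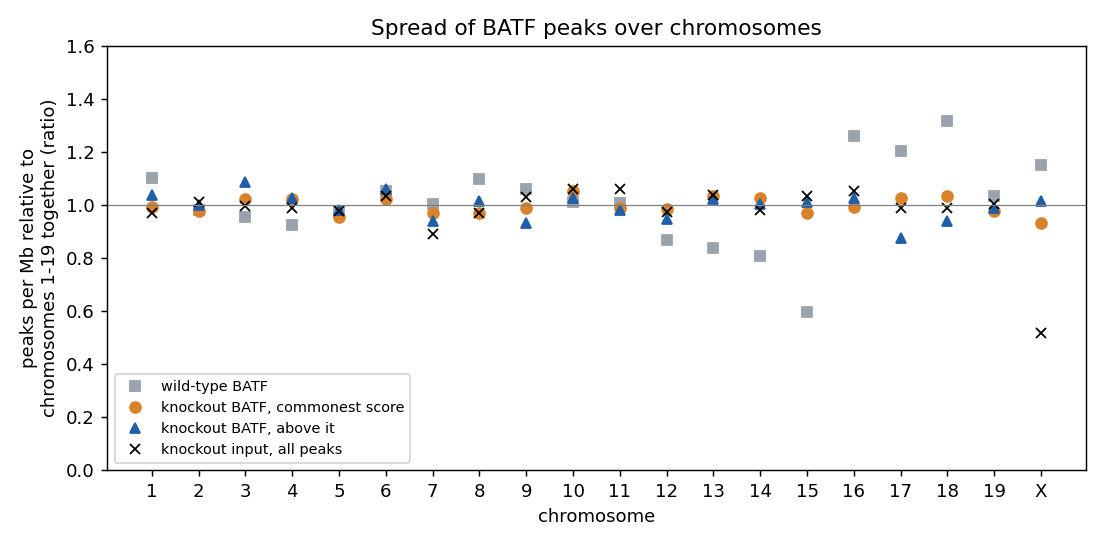
Peaks per Mb on chromosomes 1 to 19 and X divided by the density over chromosomes 1 to 19 (ratio, vertical axis; chromosome Y not drawn) for wild-type BATF, knockout BATF at and above the commonest score, and all knockout input peaks, 1 library each. On the chromosomes drawn, the knockout input on X, at 0.519, is the knockout point farthest from 1, and wild-type BATF varies more, from fewer peaks.

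The lists of other antibodies took no part in forming the classes, apart from the controls. Wild-type BATF peaks that were shared lay in the wild-type IRF4 list in 9 of 52 cases, or 17.3% (8.23 to 30.3), and those of wild-type alone in 16 of 556, or 2.88% (1.65 to 4.63). For knockout IRF4 the shares were 15.4% (6.88 to 28.1) and 2.34% (1.25 to 3.97). Neither pair of intervals overlapped. The same held for the wild-type NLRP3 antibody, at 9.62% (3.20 to 21.0) and 1.44% (0.623 to 2.82). For wild-type STAT6 the shares were 9.62% (3.20 to 21.0) and 3.24% (1.93 to 5.07), with overlapping intervals. In the knockout STAT6 list there were 3 of 52 and 7 of 556, and in the knockout list of the NLRP3 antibody 1 and 5. At least 1 of these 6 lists held 28.8% (17.1 to 43.1) of the shared and 5.40% (3.67 to 7.61) of the other wild-type peaks.

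Shared peaks also score higher, and within a range of ranks the IRF4 intervals of shared and other peaks overlapped. Scores of at least 100 were held by 25 of the 52 shared peaks and 60 of the 556 others. Within the top 50, wild-type IRF4 held 5 of 19 shared peaks, or 26.3% (9.15 to 51.2), and 4 of 31 others, or 12.9% (3.63 to 29.8). Knockout IRF4 held 6 of 19, or 31.6% (12.6 to 56.6), and 4 of 31, with overlapping intervals. At ranks 51 to 608 wild-type IRF4 held 4 of 33 shared peaks, or 12.1% (3.40 to 28.2), and 12 of 525 others, or 2.29% (1.19 to 3.96), again overlapping. For at least 1 of the 6 lists the shares at these ranks were 18.2% (6.98 to 35.5) and 4.38% (2.80 to 6.50), which did not overlap. Within the top 50 they were 47.4% (24.4 to 71.1) and 22.6% (9.59 to 41.1), which did. For the wild-type NLRP3 antibody the intervals of shared and other peaks overlapped in both ranges of ranks.

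**Figure D5:**
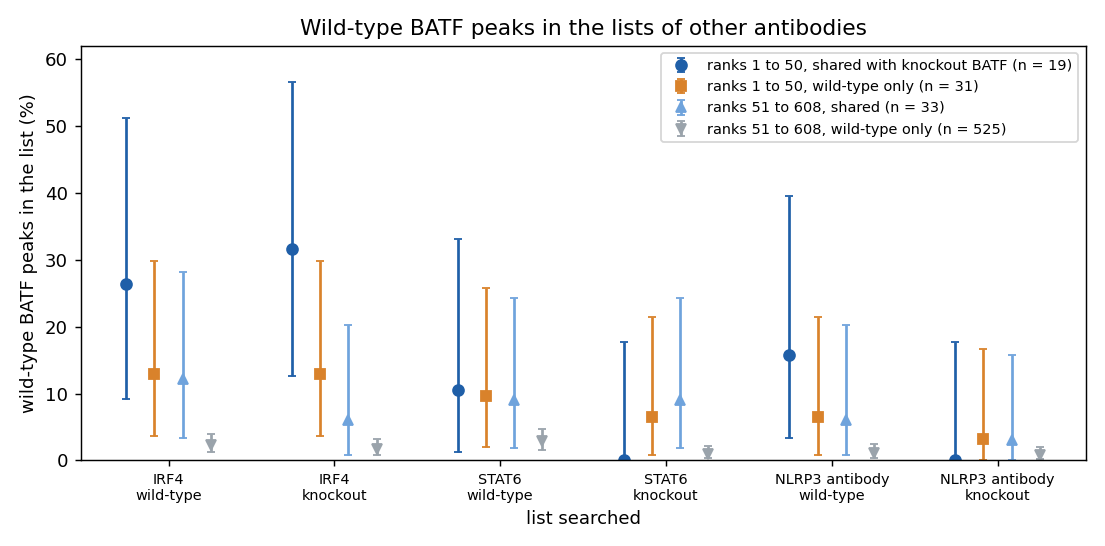
Share of wild-type BATF peaks (vertical axis, %) that lie in each list of another antibody, split by wild-type score rank and by whether the peak is shared with knockout BATF; points are shares and bars exact 95% intervals. Wild-type IRF4 holds 26.3% of shared and 12.9% of other peaks at ranks 1 to 50, with overlapping bars, and 2.29% of the 525 lower peaks that are not shared.

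The strongest wild-type BATF peaks were also looked for in all knockout lists as deposited. Of the 50 highest, 21 lay among the 60926 knockout BATF peaks, 10 among the 1008 of knockout IRF4, 2 among the 361 of STAT6 and 1 among the 661 of the NLRP3 antibody. Knockout Ig and input held 1 each, of peaks that had been filtered on the wild-type controls. Knockout-only BATF peaks were rarely at sites of other antibodies: 79 of 52937 at the commonest score, or 0.149% (0.118 to 0.186), and 18 of 6056 above it, or 0.297% (0.176 to 0.469), lay in at least 1 of the 6 lists. Of the 7 peaks that scored at least 90, 3 did, all of them in wild-type IRF4.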

How the data were processed

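Each of 12 libraries has a list of peaks from MACS, run in Galaxy per the file headers. MACS version, cut-off and control library: not given in the sources used here. Reads were aligned with Bowtie2, per the submitters' processing notes, which name the build mm8. Peaks reach position 197127924 on chromosome 1 and 152397321 on chromosome 7, beyond these chromosomes in mm8 and within them in mm9. The score in each deposited list is the authors' own value per peak, read as 10 times the negative log10 of p (the lowest was 50.04), and was not normalized between libraries. No mm9 genome was used; genes, motifs and sequences were not analysed here. Overlaps, ranks, widths and spacing were computed with pandas 2.3.3, numpy 2.4.6 and scipy 1.17.1 (Python 3.11.15), and checked with bedtools 2.31.1 and on simulated lists. Ties were settled by position. Densities refer to the span of each chromosome that peaks of the 12 lists cover end to end. Regions named were the 15 highest wild-type, 10 highest knockout and 10 highest unshared wild-type peaks, the 5 highest shared with knockout peaks above the commonest score, and the 5 widest of each list, from which the text gives a part. The members and rules were chosen with earlier results of these data known. With 1 library per group no test was made. The alternatives tried were another overlap, control filter, set of sequences, minimum score or merging.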

Additional observations from a re-analysis of the deposited data

How the results depend on the processing

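No paired analysis was possible because each group holds 1 library. Of 79 recomputed values 69 stayed within the interval (for widths, the quartiles) of the reported value, 10 moved outside it, and none is a signed value that could reverse. Without removal of control peaks the share of wild-type peaks found in the knockout rose from 8.55% to 15.97%, the share that met a knockout peak above the commonest score from 3.62% to 10.2%, and that of knockout peaks above the commonest score found in wild-type from 0.362% to 1.12%. The top 50 of each list were then ranked anew and included peaks that overlap Ig or input. These new sets stood at 70% in place of 38% in wild-type and at 76% in place of 12% in the knockout. Of the 50 highest control-free wild-type peaks, 21 were found among the deposited knockout peaks. Of the 50 highest control-free knockout peaks, which gave the 12%, 43 are among the 394 tied at 87.27 and were taken by position. Of those 394 peaks 1 is shared, so another tie order could add at most 1 peak to the 6 found. A gap of up to 1000 bp gave 12.2% of wild-type peaks and 0.0850% of knockout peaks at the commonest score. A minimum score of 60 in both lists, which removes the commonest score, gave 4.58% of wild-type peaks and 18% of the top 50. The ratio of X to chromosomes 1 to 19 was 1.02 above the commonest knockout score, against 0.939 for all. The depth of each library is unknown, so list lengths and scores carry depth and the caller's control as well as binding.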

Other observations

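Peaks on unplaced sequences entered the recomputation over all sequences but no comparison of the report. The sequence Y_random held 473 knockout BATF peaks, 440 of them at the commonest score, and 380 knockout input and 5 knockout Ig peaks. The wild-type BATF, Ig and input lists had 0 there. As deposited, these knockout lists held 60926, 30165 and 413 peaks in that order, and wild-type BATF 772. The counts are therefore not on an equal footing. Un_random held 81 wild-type and 108 knockout BATF peaks, 43 of the latter at the commonest score, beside 92 wild-type and 71 knockout Ig peaks. The highest scores on Un_random were 1403 in wild-type and 1028 in knockout BATF, and 1533 and 1362 in Ig. Wild-type control-free BATF peaks met a control peak of the other genotype in 6 of 608 cases, 0 of them shared peaks, and knockout ones in 15 of 60161.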
